A study of Homo sapiens with 8 samples.

Results

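The comparison described here set the SIRT1 short hairpin RNA sh3 against a control hairpin in DND41, an established line of human T cell acute lymphoblastic leukaemia (T-ALL). It used 5 of the 8 RNA-seq libraries of the series, 3 with sh3 (A, B and C) and 2 with the control hairpin (A and C). Of 18133 gene rows, the 13885 with a mean of at least 10 normalized counts over the 8 libraries were tested. Every culture, the controls included, was kept in RPMI medium with 10% FBS and received doxycycline for 72 h, which switched on the hairpin it carried. The 3 remaining libraries carry another SIRT1 hairpin, sh1, and entered the same fit to help estimate the spread between libraries. Control B was not analysed here. No cells without doxycycline or without a hairpin stood among the libraries, and the labels do not say whether the letters mark separate infections or only separate cultures, and p-values here therefore reflect only how these cultures varied.

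SIRT1 is a protein deacetylase that needs NAD+ to work. It removes acetyl groups from histones and from many regulators, among them p53, FOXO factors, NF-kB subunits, SREBP proteins, the NOTCH1 intracellular domain and clock proteins. DND41 cells carry activating NOTCH1 mutations and express the homeobox oncogene TLX3, and NOTCH1 signalling drives growth in many T-ALL cells.

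The library sh3 C is placed with SIRT1 knockdown by its title and genotype, while its description names the control hairpin. It was analysed with sh3. Its SIRT1 level, 1179 normalized counts, lay between those of sh3 A (1099) and sh3 B (1217) and below both controls. Across genes its rank correlation was 0.9960 with sh3 A and 0.9955 with sh3 B, and 0.9925 and 0.9910 with controls A and C. Its median absolute log2 difference was 0.155 from control A, against 0.179 for sh3 A and 0.178 for sh3 B, and 0.183 from control C, against 0.203 and 0.207. Library totals ran from 33087820 to 34072666 normalized counts, between 326 and 544 rows were at 0, and mitochondrially encoded genes took 2.71% to 3.07% of each library. Results that turned on 1 library are given with and without it.

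SIRT1 itself (chr10:67884669-67918390, GRCh38) was at 1745 and 1920 normalized counts in controls A and C and at 1099, 1217 and 1179 in sh3 A, B and C. Every sh3 library lay below both controls. The mean fell from 1832 ± 123 (SD, n = 2) to 1165 ± 60.1 (SD, n = 3), by 36.4%, a log2 change of -0.65 ± 0.07 (SE; limma adjusted p = 0.00014). The sh1 libraries held 1259, 1312 and 1328, and for SIRT1 the difference between sh3 and sh1 did not pass the direct test (-0.16 ± 0.06, adjusted p = 0.14). Here and below, a change is a difference of log2(normalized count + 1), a gene is said to have risen or fallen when its limma adjusted p was under 0.05, and values are listed as control A, control C, then sh3 A, B and C.

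Over all tested genes, 2576 (18.6%) changed, 1300 upward (9.36%) and 1276 downward (9.19%). At an unadjusted p under 0.05 there were 4505. Most changes were small: 1899 of the 2576 were under 0.5 on the log2 scale, and the median size among changed genes was 0.338. Large changes were more often falls. A change of at least 1 was seen for 62 risen genes (0.447%) and 165 fallen genes (1.19%), and one of at least 2 for 9 and 51. The median change of all genes was 0.00034. In 2574 of the 2576 called genes all sh3 libraries lay beyond both controls. For a called gene such separation therefore restates the call. The share of genes called grew with expression, from 6.65% among the 3472 genes of lowest mean level to 29.3% among the 3471 of highest. Over the same classes the median size of a called change fell from 1.21 to 0.264. Where the share of a list is set against that of all genes below, levels were not matched. The count was sensitive to the libraries: 860 genes were called without control C, 1537 without sh3 A, 1563 without sh3 B and 2233 without sh3 C. Of the 860, 819 were also called, in the same direction, with all libraries.

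**Figure D1:**
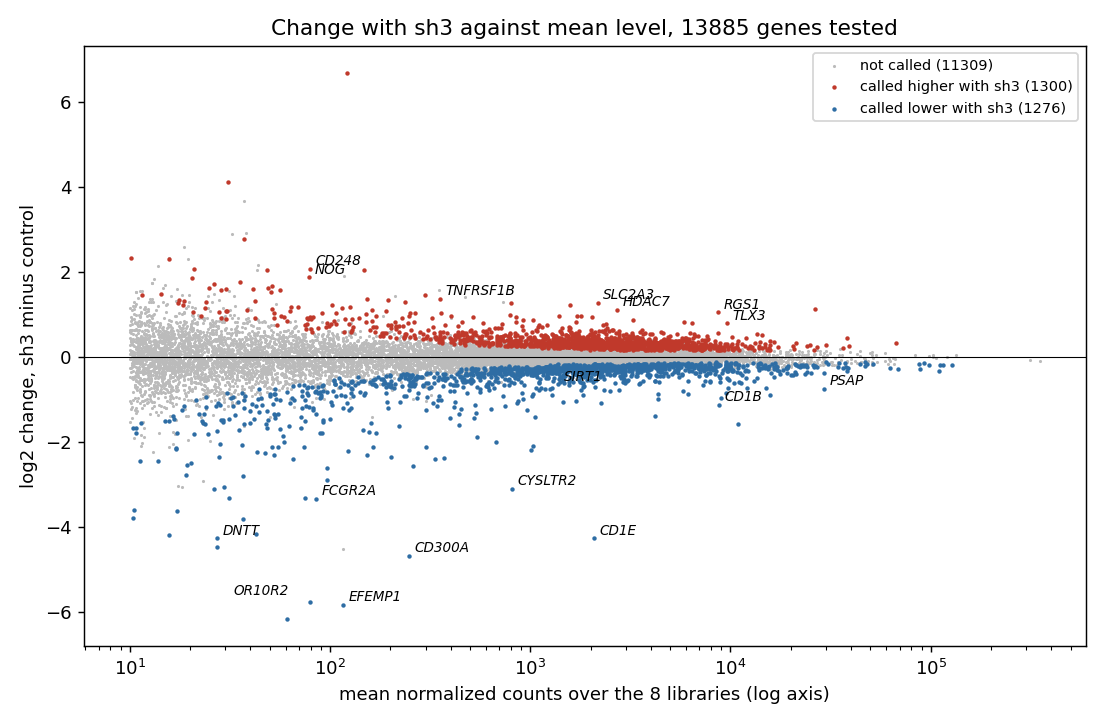
Log2 change of sh3 against control (y axis) against the mean normalized counts over the 8 libraries (x axis, log scale), 1 point per tested gene, with risen genes in red, fallen genes in blue and the others in grey. The 1300 risen and 1276 fallen genes lie mostly within 0.5 of zero. Changes of at least 2 were falls for 51 genes and rises for 9.

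Among the largest falls, 3 genes were near the floor in sh3. EFEMP1, an extracellular matrix glycoprotein of the fibulin family (chr2:55865967-55924139), was at 406 and 478 in the controls and at 3.83, 5.79 and 13 in sh3. The olfactory receptor gene OR10R2 was at 188 and 201, then 4.16, 0 and 7.96. The processed pseudogene AC104850.1 was at 210 and 268, then 2.68, 1.15 and 3.56. All genes named here as largest falls or rises were required to have every sh3 library beyond both controls, so that this separation restates the choice. The log2 changes of these 3 were -5.84 ± 0.55, -5.77 ± 0.68 and -6.17 ± 0.58 (limma adjusted p = 5.4e-05, 0.00026 and 5.3e-05). Levels this low rest on few counts. AC104850.1 was at 0 to 3.56 in all 6 libraries with a SIRT1 hairpin. EFEMP1 had means of 7.55 in sh3 and 8.83 in sh1. Both AC104850.1 and EFEMP1 passed the filter on low values through the controls.

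Surface receptors of blood cells were among the other large falls. The inhibitory receptor CD300A (chr17:74466399-74484796) was at 425 and 422, then 18.8, 8.90 and 21.9, a change of -4.68 ± 0.28 (limma adjusted p = 3.2e-06). The leukotriene receptor CYSLTR2 (chr13:48653711-48711226) was at 849 and 955, then 80.4, 91.9 and 147, a change of -3.12 ± 0.20 (adjusted p = 3.3e-06). FCGR2A, an Fc receptor for IgG with closely related copies that can share reads, was at 274 and 256, then 39.0, 16.1 and 24.9, a change of -3.35. In each of these receptors the highest sh3 library was far below the lower control. FLT4, a receptor tyrosine kinase for VEGF-C, was at 333 and 551, then 58.7, 61.9 and 96.7 (-2.58). The protease gene CTSG was at 228 and 219, then 33.6, 33.9 and 38.2 (-2.63). SHC4, a signalling adaptor whose gene overlaps EID1, was at 290 and 286, then 41.2, 29.2 and 44.5 (-2.90). ANKS6, an ankyrin repeat protein of cilia, was at 84.5 and 90.8, then 15.9, 3.48 and 7.90 (-3.34). GAS2, a protein that links actin and microtubules, was at 137 and 135, then 29, 10.8 and 47.5 (-2.41), and its call was lost without control C.

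Large rises were fewer. Apart from UTP14C, given below, the 12 largest rises were smaller than the 12 largest falls. NOG (chr17:56593699-56595590), which encodes noggin, a secreted antagonist of BMP ligands, was at 36.0 and 40.8 in the controls and at 159, 120 and 151 in sh3, a change of 1.87 ± 0.20 (limma adjusted p = 0.00014). CD248, a transmembrane glycoprotein of stromal cells, was at 31.9 and 21.4, then 136, 106 and 99.8 (2.07). The adhesion protein NECTIN1 was at 86.4 and 37.2, then 272, 206 and 231 (2.03). These genes were at low levels throughout. TNFRSF1B, the TNF receptor known as TNFR2, was at 253 and 210, then 644, 505 and 632 (1.35). The receptor tyrosine kinase FGFR1 was at 142 and 108, then 275, 341 and 334 (1.34). ONECUT1, a homeobox transcription factor, was at 148 and 135, then 342, 326 and 364 (1.28). TXNRD3, a thioredoxin reductase, was at 103 and 83.6, then 264, 261 and 193 (1.34). DENND3, an exchange factor for Rab GTPases, was at 16.6 and 33.5, then 68.7, 88.1 and 73.5 (1.65). AC011529.1 was at 155 and 162, then 511, 427 and 374 (1.44).

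The calls for 3 of the named rises were unstable. UTP14C, a near copy of UTP14A with which it can share reads, was listed at 0 in both controls and at 339, 265 and 10.6 in sh3. It was also at 0 in sh1 B, with 110 and 249 in the other sh1 libraries, and no fold is given. The immediate early gene NR4A1 was at 14 and 42.5, then 55.1, 76.3 and 89.0 (1.52), and AP001273.2 at 40.2 and 10.2, then 75.9, 63.5 and 51.2 (1.57). NR4A1 lost its call without control A, sh3 B or sh3 C, AP001273.2 without control C, any 1 of the sh3 libraries or sh1 B, and UTP14C without either control, sh3 A or sh3 B.

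**Figure D2:**
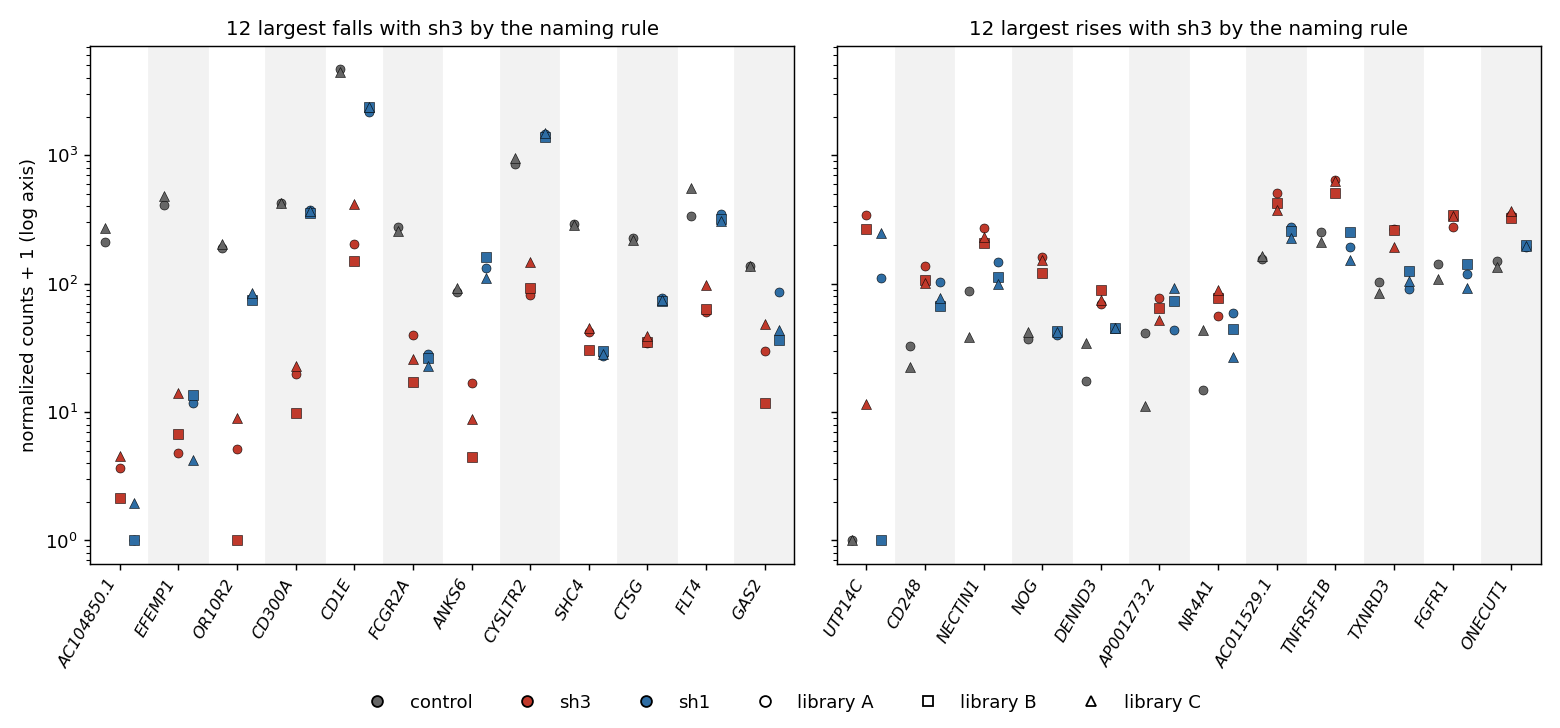
Normalized counts (log scale, count + 1) of the 12 largest falls and the 12 largest rises, 1 point per library for the 2 control, 3 sh3 and 3 sh1 libraries. CD300A and CYSLTR2 separate sh3 from both control and sh1, whereas EFEMP1 and FCGR2A are low with both SIRT1 hairpins.

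T cell identity and surface genes fell more often than they rose. Of 28 tested, 16 fell and 2 rose, with a median change of -0.37. In a bulk library, fewer cells with a gene on and less RNA per cell cannot be told apart. All 5 members of the CD1 family, lipid-presenting molecules of cortical thymocytes, fell. CD1E (chr1:158353696-158357553) was at 4648 and 4417 in the controls and at 203, 149 and 418 in sh3, a change of -4.27 ± 0.30 (limma adjusted p = 6.8e-06). CD1B was at 10971 and 11286, then 5030, 5017 and 5112, a change of -1.14 ± 0.06 (adjusted p = 9.8e-07). The sh3 libraries agreed closely for CD1B and lay far from both controls. CD1A (766 and 931, then 327, 319 and 364), CD1C (53 and 44.2, then 28.4, 15.6 and 26.1) and CD1D (272 and 288, then 168, 175 and 175) changed by -1.33, -1.06 and -0.69. CD7, an early T lineage surface protein, was at 12233 and 13298, then 6802, 6748 and 7670, a change of -0.85 ± 0.06 (adjusted p = 9.6e-06).

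The receptor complex and its kinase followed with smaller changes. All 4 CD3 chains fell, CD3D by 0.57, CD3G by 0.44, CD3E by 0.41 and CD247 by 0.26 on the log2 scale, and the kinase LCK fell by 0.26. Other members, named after their values were seen, moved further. TCF7, a transcription factor of T cell commitment, was at 327 and 273, then 54.0, 98.8 and 58.4, a change of -2.12 ± 0.24 (limma adjusted p = 0.00021). The co-receptors CD28 (451 and 401, then 189, 172 and 174) and CD2 (56.2 and 63.1, then 20.3, 25.4 and 17.3) changed by -1.25 and -1.48. In the opposite direction, GATA3 was at 2880 and 2949, then 4510, 4428 and 4033 (0.57 ± 0.06), and BCL11B at 3278 and 2896, then 4069, 4169 and 4011 (0.41 ± 0.08). Both are transcription factors of the same lineage, and in both the groups did not overlap.

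In the V(D)J recombination list, 2 of 11 genes rose and 1 fell, with a median of -0.07 that was 0.009 after quantile normalization. The called share was 27.3%, against 18.6% of all genes. DNTT, the polymerase that adds bases at V(D)J junctions, was at 65.7 and 58.3, then 0.905, 2.31 and 4.42, a change of -4.28 ± 0.45 (limma adjusted p = 0.00012). The recombinase gene RAG1, which overlaps RAG2, was at 60598 and 57887, then 72173, 73062 and 74851 (0.31 ± 0.05, adjusted p = 0.0011). ARPP21, expressed in immature thymocytes, rose by 0.32, a call lost in the fit without the variance trend. RAG1 and DNTT, both genes of receptor assembly, moved in opposite directions. DNTT was a low gene, with a mean of 27.3 over the 8 libraries, and its sh3 values rest on few counts.

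TLX3, the homeobox oncogene of this line, rose from 7428 and 7498 to 13195, 13188 and 12104 (0.78 ± 0.05, limma adjusted p = 3.3e-06). Of 10 T-ALL transcription factors 20% were called, against 18.6% of all genes. TLX3 was the only riser of this list, whose median was 0.09 (0.06 without sh3 A and 0.15 without sh3 B). MYB was the only one that fell, from 9046 and 9687 to 8448, 8282 and 7917 (-0.19), and its call was lost without control C, sh3 B or sh3 C.

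Of 18 tested NOTCH1 targets, 11 fell and 3 rose, with a median of -0.37. The receptor NOTCH3 was at 12338 and 11630, then 7174, 7053 and 7130, a change of -0.75 ± 0.06 (limma adjusted p = 1.3e-05). DTX1, an E3 ligase and a common readout of NOTCH activity, was at 18256 and 20016, then 11054, 11736 and 11613 (-0.74 ± 0.06, adjusted p = 1.3e-05). For both genes the highest sh3 value was well under the lower control. IL7R, the interleukin 7 receptor, fell from 18162 and 18796 to 15328, 14399 and 13901 (-0.35). The list also holds CD300A and the complement receptor CR2 (191 and 206, then 61.3, 111 and 90.8; -1.21). Further members, named after their values were seen, fell as well: MYC by 0.39, NOTCH1 by 0.34, IGF1R by 0.81 and HES4 by 1.67 on the log2 scale.

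The risers were HES1, CCND3 and NOTCH2. HES1, a repressor that NOTCH1 induces directly, was at 2203 and 2402, then 3532, 3474 and 3037 (0.54 ± 0.08, limma adjusted p = 0.0011). Cyclin D3 (CCND3) was at 31599 and 32356, then 44265, 43826 and 42287 (0.44 ± 0.04, adjusted p = 5.2e-05). HES1 and HES4, related repressors of the same family, moved in opposite directions. Without control C, 9 of the list's 14 calls were left, and the CR2 call was among those lost.

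The DNA-binding partner of NOTCH1, CSL, recognises GTGGGAA. These letters, on either strand, stood in 2 of 15 targets with a tabled promoter (13.3%), against 6.28% of 27305 RefSeq promoters that run from 250 bases before to 50 bases after the gene start. They were HES1 and HES4. The HES1 stretch is shown with the letters in capitals (GRCh38.p14, RefSeq, plus strand, chr3:194136023-194136109).
HES1: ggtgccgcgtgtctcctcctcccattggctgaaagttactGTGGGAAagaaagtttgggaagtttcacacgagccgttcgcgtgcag

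**Figure D3:**
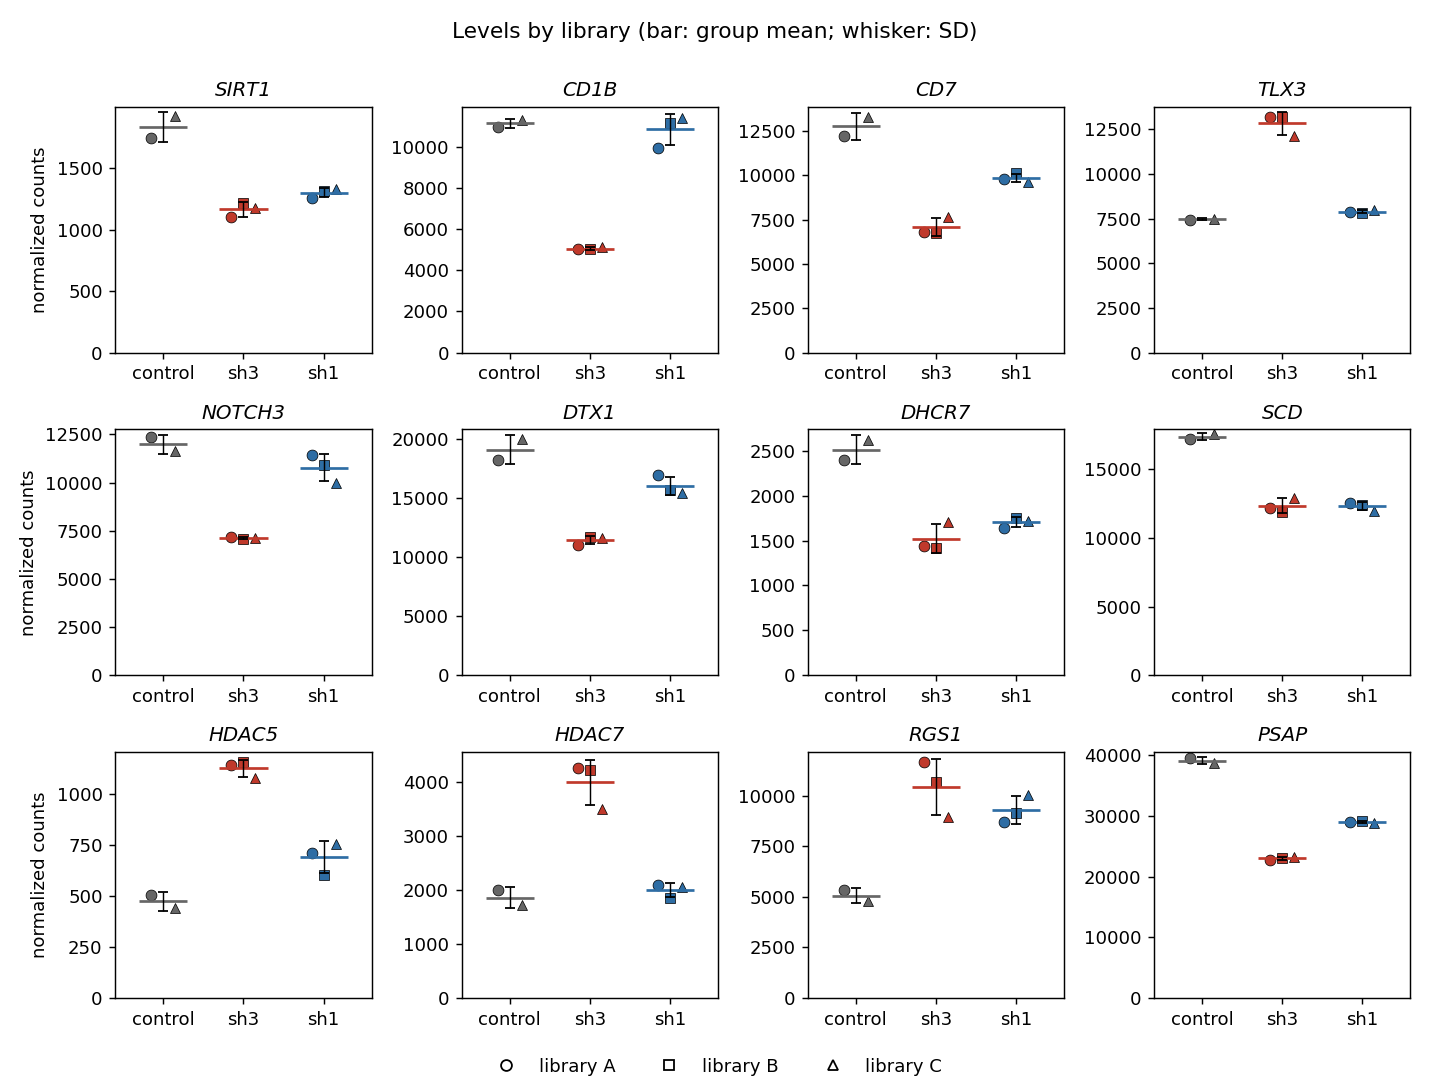
Normalized counts in each library (points; 2 control, 3 sh3 and 3 sh1) with the group mean as a line and the SD as a whisker, for 12 genes, each on its own axis. SIRT1, CD1B, CD7, NOTCH3, DTX1, DHCR7, SCD and PSAP are lower in all sh3 libraries than in both controls, and TLX3, HDAC5, HDAC7 and RGS1 higher.

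Cholesterol synthesis and uptake genes were mostly lower. Of 25 tested genes, 19 fell and 1 rose, with a median of -0.42, and the sh3 libraries lay below both controls for 22. Such separation without a test was common, since 49.8% of all genes had every sh3 library beyond both controls, 25.1% below and 24.8% above. DHCR7, which makes cholesterol in the last step of one branch, was at 2398 and 2624, then 1441, 1414 and 1711 (-0.73 ± 0.08, limma adjusted p = 0.00023). HMGCS1, which makes the precursor HMG-CoA and was named after its values were seen, was at 5420 and 5562, then 4098, 3736 and 4204 (-0.45 ± 0.06). For both genes no sh3 library reached a control value.

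Further falls ran along the pathway, among them those of EBP (-0.22) and TM7SF2 (-0.79). SREBF1, the transcription factor SREBP1, fell by 0.54. STARD4, a sterol transporter, was the single riser (2801 and 2670, then 3335, 3229 and 3160; 0.24). In the fatty acid list, 4 of 13 fell and 1 rose, with a median of -0.15. Stearoyl-CoA desaturase SCD was at 17177 and 17539, then 12172, 11888 and 12948 (-0.49 ± 0.05), fatty acid synthase FASN at 9802 and 10151, then 6980, 6345 and 6842 (-0.57 ± 0.09), and SCD5 at 997 and 951, then 679, 693 and 654 (-0.53 ± 0.07). Without control A, 3 of the 5 fatty acid calls were left. A strict sterol element, CACCCCAC on either strand, stood in 1 of 19 tabled cholesterol promoters, that of SREBF2, and in none of 12 fatty acid promoters, against 2.72% of all promoters.

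Amino acid transport and synthesis genes under the transcription factor ATF4 fell for 12 and rose for 2 of 29, with a median of -0.08 (-0.16 without sh3 B). The cystine transporter SLC7A11 was at 1105 and 1079, then 513, 517 and 714 (-0.93 ± 0.13, limma adjusted p = 0.00071). SLC7A5, the light chain of a leucine transporter, was at 14174 and 14894, then 8932, 9136 and 10318 (-0.62 ± 0.07), and its heavy chain SLC3A2 at 8384 and 8974, then 6270, 6346 and 6457 (-0.45 ± 0.05). The 3 transporters were lower in every sh3 library than in either control. SLC38A1, which imports glutamine, fell by 0.61, and SESN2, which restrains mTORC1, fell by 0.74. ATF4 itself fell by 0.24, while DDIT3, which encodes CHOP, rose by 0.43 (703 and 699, then 989, 980 and 878). Without control C, 9 of the 14 calls were left. A search for the letters TGATGCAA found them in 1 of 24 tabled promoters, that of CHAC1, and in 0.923% of all promoters.

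Of 20 aminoacyl-tRNA synthetases 2 rose (AARS by 0.23 and DARS by 0.31) and 2 fell (GARS and NARS, -0.23 and -0.22), shares near those of all genes. The list's median was -0.02, and 0.006 after quantile normalization. Without control C, 1 of these 4 calls was left.

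The cell division genes that changed rose in small steps, and most did not pass the test. Of 32 mitosis and spindle checkpoint genes, 11 rose and none fell (median 0.15), and 22 were higher in all sh3 libraries than in both controls, against 24.8% of all genes. The checkpoint kinase TTK was at 4165 and 3801, then 5141, 5215 and 5245 (0.39 ± 0.05, limma adjusted p = 0.00059). The kinetochore protein NDC80 was at 3829 and 4082, then 5076, 5117 and 5075 (0.36 ± 0.05). ASPM, a protein of the spindle poles, was at 11293 and 11084, then 13448, 13436 and 12881 (0.24 ± 0.04). The sh3 libraries were above the controls in each. The 11 calls became 7 without control A, 6 without control C, 7 without sh3 A and 5 without sh3 B.

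Mitotic genes are known to carry a short cell cycle element (CHR) and CCAAT boxes near their starts. The CHR letters TTTGAA, on either strand, stood in 20 of 26 mitotic genes with a tabled promoter (76.9%), against 15.4% of all promoters and 10% of those of tested genes. CCAAT stood in 22 of 26 (84.6%), against 35.7% of all promoters and 36.9% of those of tested genes. Of the 20 genes with the CHR letters 8 rose, and of the 6 without them 1 rose. For CCAAT these counts were 7 of 22 and 2 of 4. The stretches of 5 risen genes are shown with the CHR letters in capitals, read on the gene's own strand from RefSeq on GRCh38.p14. They are ASPM (chr1:197146737-197146822, minus), PRC1 (chr15:90994536-90994595, minus), KIF23 (chr15:69414254-69414339, plus), INCENP (chr11:62123961-62124010, plus) and CKAP5 (chr11:46846308-46846393, minus).
ASPM: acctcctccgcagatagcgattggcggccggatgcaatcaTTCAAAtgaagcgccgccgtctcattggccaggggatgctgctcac
PRC1: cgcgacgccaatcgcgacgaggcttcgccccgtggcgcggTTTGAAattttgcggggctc
KIF23: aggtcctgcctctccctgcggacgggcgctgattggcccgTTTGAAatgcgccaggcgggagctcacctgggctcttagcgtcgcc
INCENP: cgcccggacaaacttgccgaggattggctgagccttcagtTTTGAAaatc
CKAP5: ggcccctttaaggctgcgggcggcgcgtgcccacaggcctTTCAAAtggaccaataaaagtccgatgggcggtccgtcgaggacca
In ASPM and CKAP5 the element reads on the opposite strand, and in the 5 it lies 10 to 113 bases before the gene start. PRC1, a microtubule bundler of the central spindle, rose by 0.34, CKAP5, a microtubule polymerase, by 0.34, INCENP, a scaffold of the Aurora B complex, by 0.24 and the kinesin KIF23 by 0.20.

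DNA replication genes and E2F targets showed the same direction, with 10 of 32 risen and none fallen (median 0.08). The repressor E2F8 was at 1532 and 1537, then 2119, 2384 and 2185 (0.54 ± 0.07, limma adjusted p = 0.00039), ORC1, a subunit of the origin recognition complex, at 1820 and 1861, then 2385, 2392 and 2246 (0.35 ± 0.06), and RRM2, a ribonucleotide reductase subunit, at 11782 and 12468, then 14458, 14473 and 14357 (0.25 ± 0.04). Without control C 5 of the 10 calls were left, and without sh3 B 6.

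Among 17 G1 regulators, 5 rose and 2 fell (median 0.02, and as low as -0.01 under other settings). Besides CCND3, the inhibitors CDKN2D (633 and 507, then 1140, 1181 and 1017; 0.97 ± 0.10) and CDKN1B (4986 and 4932, then 7048, 6818 and 6428; 0.45 ± 0.05) rose. CDKN1A, the p53-responsive inhibitor p21, fell from 110 and 102 to 43.2, 30.9 and 38.7 (-1.48 ± 0.21, limma adjusted p = 0.00092). These inhibitors did not share a direction, and 4 of the 7 calls were left without control C.

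The ribosome genes that changed fell slightly, and most did not pass the test. Of 38 cytosolic ribosomal protein genes 8 fell and none rose (median -0.18). The called share was 21.1%, against 18.6% of all genes called in either direction and 9.19% that fell. All sh3 libraries were below both controls for 35 of the 38, against 25.1% of all genes. RPL6 was at 33109 and 36548, then 26379, 26110 and 27577 (-0.38 ± 0.07, limma adjusted p = 0.0036), RPL23 changed by -0.39 and RPLP0 by -0.22. These genes have many processed copies that can share reads. The count was unstable: none was called without control C, 2 each without sh3 A and without sh3 B, 4 each without sh3 C and without sh1 B, 13 without sh1 C, and 29 without sh1 A. In a fit of the 5 sh3 and control libraries alone 28 were called. After quantile normalization 2 were called and the median was -0.095.

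Of 26 nucleolar and ribosome biogenesis genes 11 fell and none rose (median -0.16, -0.23 without control A and -0.06 without control C). NOLC1, a chaperone of nucleolar particles, was at 10755 and 11670, then 8810, 8837 and 8921 (-0.34 ± 0.05), PPAN changed by -0.36 and NOP56, a core protein of box C/D particles, by -0.26. Without control C 2 of the 11 calls were left, without sh3 A 5, without sh3 B 6 and without sh1 B 7. The E-box CACGTG, the letters bound by MYC and by TFEB, stood in 7 of 20 tabled nucleolar promoters (35%) and in 7 of 21 lysosome and autophagy promoters (33.3%), against 7.43% of all promoters and 10% of those of tested genes. Among the nucleolar promoters 1 of 7 with the letters belonged to a gene that fell, and 7 of 13 without them. For lysosome and autophagy genes these counts were 3 of 7 and 2 of 14.

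Lysosome and autophagy genes fell for 9 and rose for 3 of 30 (median -0.09). Prosaposin (PSAP), precursor of the saposins that help to degrade sphingolipids, was at 39502 and 38678, then 22768, 23119 and 23270, a change of -0.76 ± 0.04 (limma adjusted p = 9.8e-07). Cathepsin D (CTSD) was at 3691 and 3762, then 2580, 2534 and 2703 (-0.52 ± 0.05). The membrane protein LAMP2, named after its values were seen, was at 3906 and 3889, then 3332, 3301 and 3207 (-0.25 ± 0.05). The spread within each group was small beside these differences. The CTSD promoter holds the E-box, in capitals below (GRCh38.p14, RefSeq, minus strand, chr11:1763929-1764014). Without control A 6 of the list's 12 calls were left, and without control C 4.
CTSD: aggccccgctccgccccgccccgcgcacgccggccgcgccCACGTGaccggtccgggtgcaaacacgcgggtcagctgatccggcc

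Energy genes were mixed. In glycolysis 5 of 19 rose and 4 fell (median -0.01, and 0.03 after quantile normalization). The glucose transporter SLC2A3 was at 1375 and 1181, then 3329, 3254 and 2649, a change of 1.26 ± 0.12 (limma adjusted p = 6.1e-05). Downstream, PGAM1 (-0.34) and PKM (-0.27), both enzymes of lower glycolysis, fell. Among members named after their values were seen, the transporter SLC2A1 and the hexokinases HK1 and HK2 rose by 0.45, 0.17 and 0.30, ENO2 rose by 0.26, and TPI1 and GAPDH fell by 0.27 and 0.18. Without control C 4 of the 9 calls were left. Of 34 nuclear genes of oxidative phosphorylation, SDHA rose by 0.23 and 3 fell, among them NDUFB10 (-0.31) and NDUFB8 (-0.26) of complex I (median -0.04, -0.09 without control A and -0.01 without control C). Their called share was 11.8%, against 18.6% of all genes. These 4 calls became none without control C, 1 without sh3 A, 1 without sh3 B, 14 without sh1 A and 7 without sh1 C.

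Hypoxia-regulated genes rose for 7 of 22 and fell for none (median 0.22). DDIT4, an inhibitor of mTORC1, was at 5571 and 4252, then 9432, 8848 and 7229 (0.80 ± 0.12, limma adjusted p = 0.00094), PFKFB3, which drives glycolytic flux, at 1811 and 1746, then 2523, 2986 and 2611 (0.60 ± 0.09), and the histone demethylase KDM3A at 4242 and 3640, then 5319, 5637 and 5303 (0.46 ± 0.07). No sh3 value fell into the control range in these genes, as was so for 2574 of the 2576 genes called. Without control C 4 of the 7 calls were left. Antioxidant genes under NRF2 fell for 6 of 18 and rose for none (median -0.15). Ferritin heavy chain FTH1, which overlaps BEST1 and has processed copies, was at 12997 and 14794, then 8815, 9192 and 9346 (-0.61 ± 0.08), and the peroxidase PRDX1 at 13148 and 14677, then 9872, 10005 and 10869 (-0.44 ± 0.07).

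Of the protein folding lists, the endoplasmic reticulum response had 4 of 22 risen and 2 fallen (median 0.001). These were 27.3% of the list, against 18.6% of all genes. EDEM1, which directs misfolded proteins to degradation, was at 13569 and 11714, then 18009, 17668 and 18346 (0.51 ± 0.08, limma adjusted p = 0.0016), the co-chaperone DNAJB9 changed by 0.59 and the isomerase PDIA4 by -0.24. Without control C 2 of the 6 calls were left, and without sh3 A or without sh3 B 3. In the heat shock list 25% of 16 genes were called, against 18.6% of all genes. Of the 16, 1 rose and 3 fell, HSP90AA1 by 0.20, HSPE1 by 0.37 and FKBP4 by 0.19 on the log2 scale. These 4 calls became 1 without control C and 2 without sh3 A or sh3 B.

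Of 28 AP-1 and immediate early genes 10 rose and 1 fell (median 0.36). RGS1, which shortens G protein signals, was at 5313 and 4804, then 11653, 10689 and 8953, a change of 1.04 ± 0.10 (limma adjusted p = 5.6e-05). JUN was at 1641 and 1658, then 2393, 2903 and 2326 (0.62 ± 0.09), and IER2 at 1667 and 1564, then 2618, 2560 and 2309 (0.63 ± 0.07). All 3 were higher in every sh3 library. The transcription factor KLF6 was the only one that fell, by 0.29. Without control C 7 of the 11 calls were left, and without sh3 A 7. In the RGS family 4 of 13 rose and 1 fell (median 0.37, and 0.21 without control A), with RGS9 at 367 and 339, then 713, 571 and 585 (0.81 ± 0.12), RGS16 at 437 and 456, then 628, 637 and 683 (0.54 ± 0.10), and RGS18 changed by 0.44.

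Among p53 and its targets, 3 of 24 rose and 5 fell (median -0.02, and 0.01 without sh3 A). TP53INP1, which promotes cell death, was at 76.3 and 61.2, then 20.8, 21.9 and 18.5 (-1.70 ± 0.26, limma adjusted p = 0.0013), in the same direction as CDKN1A. BBC3, the cell death inducer PUMA, rose from 405 and 347 to 531, 617 and 545 (0.59 ± 0.11), but its call was lost without control C. The 8 calls became 5 without control A and 4 without control C. Of 15 genes of the BCL2 family 13.3% were called, against 18.6% of all genes. BBC3 rose and BCL2L11, the inducer BIM, changed by -0.23 from 2001 and 2122 to 1917, 1661 and 1686 (median of the family -0.06, and 0.008 without control C). Without control C neither was called, and BCL2L11 also lost its call without control A, sh3 B, sh3 C, sh1 B or sh1 C.

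For FOXO factors and their lymphocyte targets, 4 of 20 rose and 3 fell (median -0.02, 0.04 after quantile normalization and 0.11 without control A). IL7R fell, while CDKN1B rose. For NF-kB, 2 of 19 rose and 1 fell (median 0.10, and 0.06 without control A), 15.8% of the list against 18.6% of all genes. Lymphotoxin beta (LTB) was at 463 and 528, then 252, 238 and 237 (-1.03 ± 0.10), BIRC3, an inhibitor of apoptosis, at 626 and 654, then 886, 850 and 895 (0.45 ± 0.10), and the subunit gene NFKB2 changed by 0.29. BIRC3 lost its call without control A or control C, and NFKB2 without control C, sh3 A or sh3 B. Of the 3 calls 1 was left without control C, and without sh3 C 5 members were called. Among 16 clock genes NR1D2, a nuclear receptor of the clock loop, rose by 0.41 and NPAS2 by 0.28, and none fell (median 0.20). The called share of clock genes was 12.5%, against 18.6% of all genes. NPAS2 lost its call without either control, any 1 of the sh3 libraries or sh1 B.

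Of 30 interferon-stimulated genes 3 rose and 2 fell, shares near those of all genes (median 0.05, and 0.011 without control A). BST2, the membrane protein tetherin, was at 1276 and 1429, then 540, 566 and 595 (-1.25 ± 0.10, limma adjusted p = 1.3e-05), and IFI6 at 2430 and 2656, then 1490, 1432 and 1469 (-0.80 ± 0.07). IFIT2, which binds foreign RNA and overlaps LIPA, was at 342 and 378, then 492, 516 and 497 (0.48 ± 0.09). The 2 fallen genes had larger changes than IFIT2.

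Among 31 histone acetylation enzymes 7 rose and 1 fell (median 0.09), 25.8% of the list against 18.6% of all genes. The class IIa deacetylase HDAC5 was at 506 and 441, then 1144, 1157 and 1077, a change of 1.25 ± 0.10 (limma adjusted p = 2.3e-05). Its relative HDAC7 was at 2000 and 1722, then 4260, 4216 and 3508 (1.10 ± 0.10, adjusted p = 3.3e-05). For both, every sh3 library was far above the controls. The acetyltransferase NCOA3 changed by 0.34. The 8 calls became 5 without control A and 3 without control C. Of 30 Polycomb and other chromatin regulators 6 rose and none fell (median 0.08), 20% of the list against 18.6% of all genes. JARID2, a cofactor of Polycomb complex PRC2, was at 2065 and 1823, then 3088, 3200 and 2920 (0.66 ± 0.07, adjusted p = 0.00013), PHF19, another PRC2 cofactor, rose by 0.43 and ASXL1 by 0.29. Without control C 3 of these 6 were left.

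Within the list of sirtuins and NAD metabolism, 5 of 21 fell, SIRT1 included, and 3 rose (median -0.01, and 0.006 after quantile normalization). PARP2, a poly-ADP-ribose polymerase that consumes NAD+, was at 2581 and 2507, then 3739, 3600 and 3261 (0.47 ± 0.06, limma adjusted p = 0.00055), and NAMPT, the rate-limiting enzyme of NAD+ salvage, rose by 0.25. SIRT7, the only other sirtuin that changed, was at 1520 and 1399, then 1137, 1166 and 1147 (-0.34). The 8 calls became 4 without control A or control C, and 5 without any 1 of the sh3 libraries.

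Most called members of 2 lymphocyte gene families fell. In the SLAM family and its adaptors 5 of 7 fell and 1 rose (median -0.34). CD244, an NK and T cell receptor, was at 348 and 339, then 70.8, 67.8 and 64.9, a change of -2.32 ± 0.16 (limma adjusted p = 7.2e-06). CD84 was at 88.7 and 102, then 51.1, 42.5 and 37.0 (-1.12), and the adaptor SH2D1A changed by -0.34. LY9, the riser, was at 73.3 and 88.6, then 114, 145 and 124 (0.65). The 6 calls became 2 without control A, 1 without control C and 3 without sh3 A or sh3 B, and 2 members, CD84 and LY9, also lost their calls without sh3 C. Of 7 GIMAP GTPases, which support lymphocyte survival, 5 fell and none rose (median -0.41), with GIMAP8 at 142 and 124, then 61.4, 52.0 and 58.3 (-1.21 ± 0.19), GIMAP7 changed by -0.41 and GIMAP6 by -0.28. Without control C 1 of the 5 was left. Of 21 integrin chains 4 fell and 2 rose (median -0.16, -0.08 without control A and -0.04 without sh3 A). The called share of integrins was 28.6%, against 18.6% of all genes. ITGAL, the alpha chain of LFA-1, was at 324 and 272, then 127, 78.9 and 64.6 (-1.77 ± 0.29), ITGA2 changed by -0.53, and ITGB3 rose from 89.6 and 87.1 to 156, 189 and 194 (1.01 ± 0.16). Without control C 3 of the 6 integrin calls were left.

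**Figure D4:**
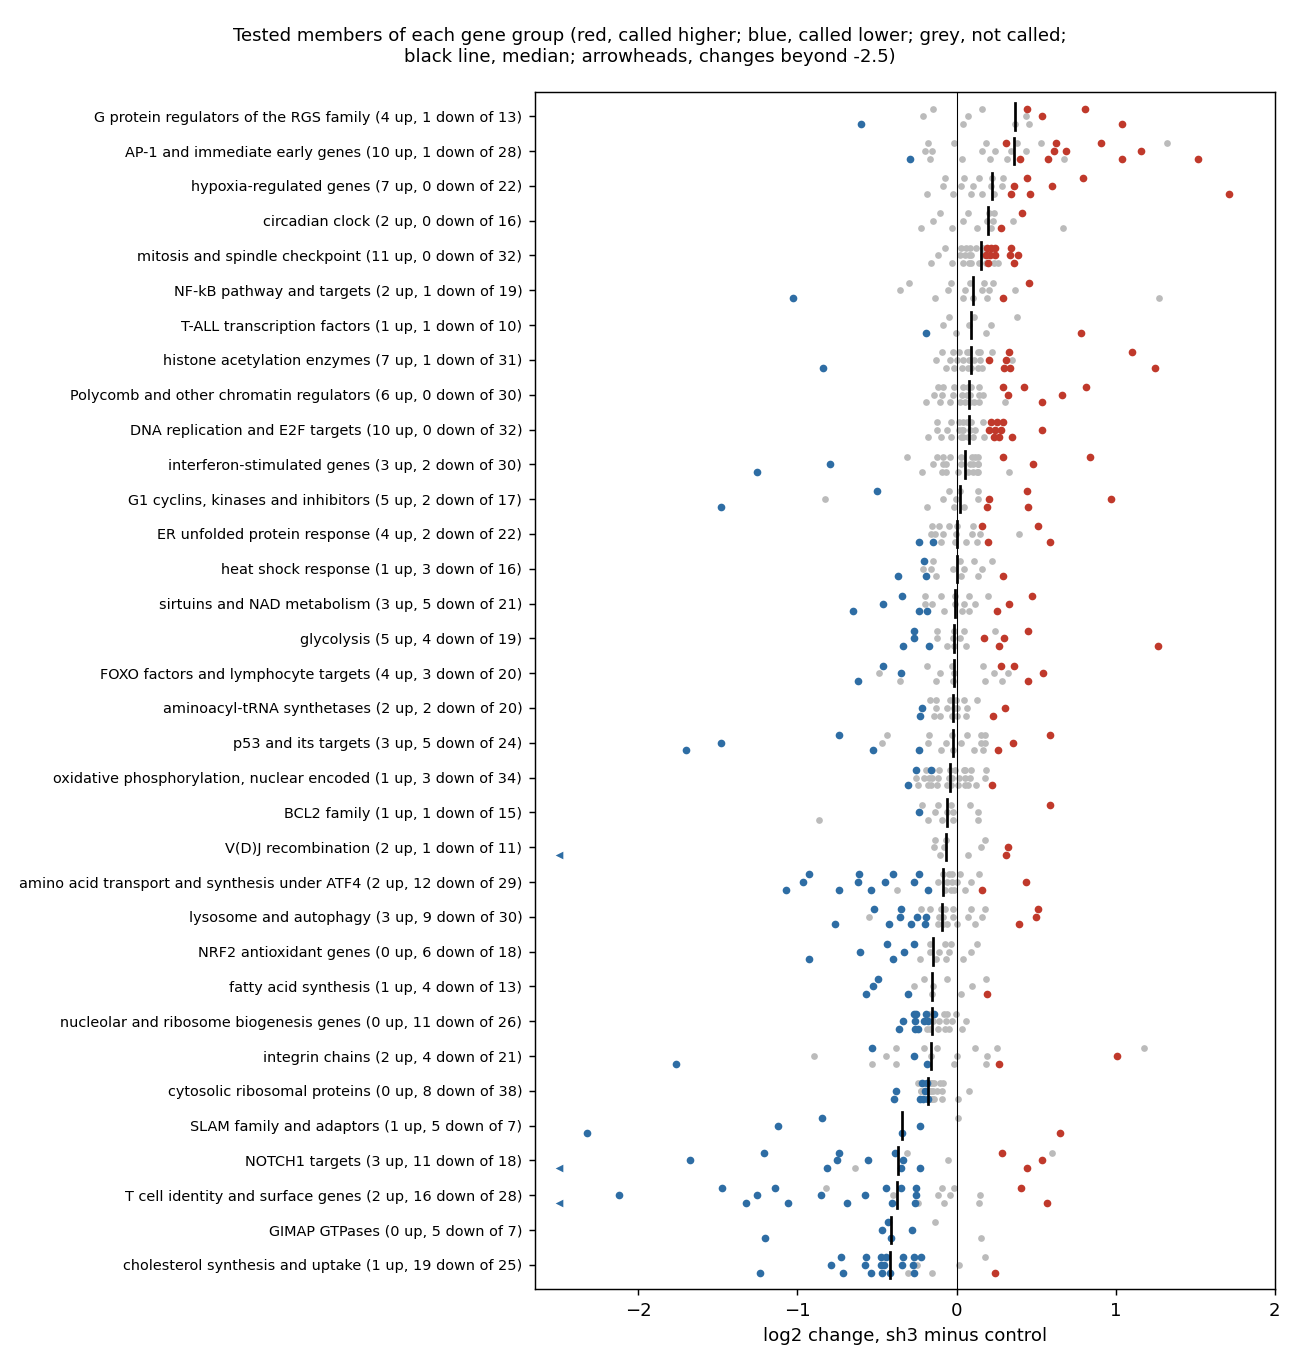
Log2 change of sh3 against control (x axis) for every tested member of 34 gene lists (rows, ordered by median), with risen members in red, fallen members in blue, the rest in grey, a black line at the list's median and arrowheads for changes beyond -2.5. Cholesterol, GIMAP, T cell identity and NOTCH1 lists have the lowest medians, from -0.42 to -0.37, and the RGS and AP-1 lists the highest, 0.37 and 0.36, although the RGS median was 0.21 without control A.

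Markers of other cell types were checked in the same libraries. DND41 expressed T lineage genes at high level (CD3E, for instance, at 24188 to 26148 in the controls). It also expressed the B cell receptor component CD79A at 24848 ± 1215 (SD, n = 2) in the controls, a gene known from some T-ALL cells, and its change to 23843 ± 800 (n = 3) in sh3 did not pass the test. Of 7 tested B cell markers CD79B rose by 0.56 and EBF1 by 0.70, CR2 fell, and the summed level of the list overlapped between groups, 27414 to 29104 in the controls and 27155 to 28633 in sh3. Of 4 tested myeloid markers CTSG and FCGR2A fell, and the list's sum, 753 to 778 in the controls and 334 to 398 in sh3, was lower through these 2 genes. The other members, CD68 (227 and 214, then 269, 237 and 244) and S100A9 (19.2 and 20.6, then 24.3, 21.8 and 23.9), were not called and were higher in every sh3 library. Of 3 NK and cytotoxic markers perforin (PRF1) fell by 0.39, a call lost without control C, and the sums were 1672 to 1710 and 1550 to 1640. No erythroid or megakaryocytic marker of 2 tested changed, and the sums were 376 to 393 and 316 to 363. Of 8 markers of adherent cells FN1 fell by 1.62 (702 and 588, then 221, 230 and 178), and the sums were 29804 to 30211 and 27627 to 29521. No marker with a gene row was at 0 in all 8 libraries. Rows stood for 10 of 11 B cell, 11 of 17 myeloid and 8 of 15 NK and cytotoxic markers. For erythroid and megakaryocytic markers 8 of 15 had a row, and for adherent cells 13 of 17. Of those with a row, 3, 7, 5, 6 and 5, in that order, had a mean under 10. Markers without a row could not be read. The part of other cell types in the results was not tested.

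The comparison of sh1 with the same 2 controls called 876 genes (6.31%), 400 upward (2.88%) and 476 downward (3.43%). Since both hairpins are read against the same 2 control libraries, their changes are not independent, and what is particular to sh3 rests on the direct test of sh3 against sh1. That test called 1589 genes (11.4%), with sh3 higher for 810 (5.83%) and lower for 779 (5.61%). SIRT1 was not among them. The count became 925 without sh3 B, 965 without sh3 A and 1019 without sh1 B.

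Several receptors and surface proteins were lower with sh3 than with sh1. For CYSLTR2, against 849 and 955 in the controls and 80.4 to 147 in sh3, the sh1 libraries held 1467, 1380 and 1485, a difference of -3.80 ± 0.17 (limma adjusted p = 3.5e-07). APP, the amyloid precursor protein, was at 110 and 103 in the controls, 40.9, 37.1 and 68.9 in sh3, and 736, 848 and 799 in sh1 (-4.04 ± 0.20, adjusted p = 5.1e-07). The hairpins moved APP in opposite directions, by -1.16 with sh3 and 2.88 with sh1. CD300A was at 376, 352 and 367 with sh1 (-4.47 ± 0.25), OR10R2, itself under its control level, at 75.5, 73.8 and 83.4 (-4.45 ± 0.61) and ANKS6 at 132, 159 and 110 (-3.92 ± 0.39).

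On the other side, LY9 was at 32.5, 33.1 and 33.4 in sh1, below the controls, so that sh3 exceeded sh1 by 1.91 ± 0.17 (limma adjusted p = 4.7e-05). NOG was at 38.5, 41.9 and 40.7 in sh1, next to the control values, a difference of 1.79 ± 0.18. RGS16 was at 200, 216 and 224 (1.60 ± 0.09) and TNFRSF1B at 191, 251 and 152 (1.60 ± 0.17). DNAH17, a dynein heavy chain of cilia, was at 104 and 77.5 in the controls, 142, 161 and 157 in sh3 and 45.0, 47.8 and 76.9 in sh1 (1.46 ± 0.21). Against the controls DNAH17 changed by 0.76, a call lost without either control, any 1 of the sh3 libraries or sh1 B.

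**Figure D5:**
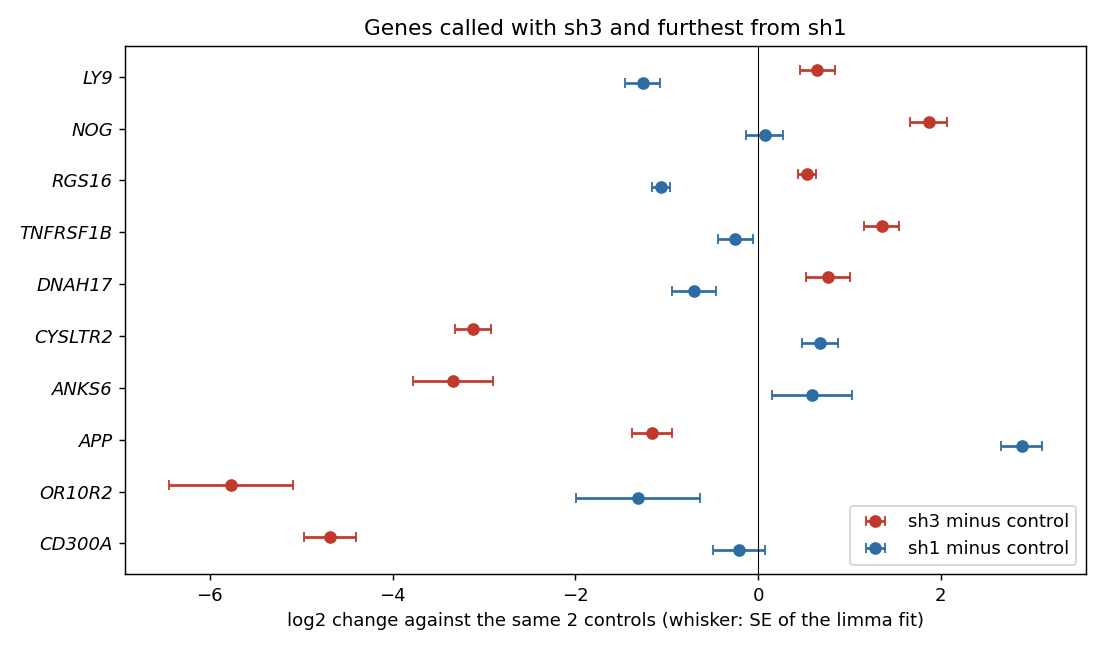
Log2 change against the 2 shared controls for the 10 named genes furthest apart between the hairpins, with sh3 and sh1 as separate points and bars of 1 SE. APP, ANKS6 and CYSLTR2 are below zero for sh3 and above it for sh1, LY9, RGS16, DNAH17 and TNFRSF1B the reverse, and NOG sits near zero with sh1 (0.07) and at 1.87 with sh3.

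The lists differed in how far the hairpins parted. For T cell identity genes sh3 was below sh1 for 11 of 28 and above for 3; CD1B was at 10828 ± 770 (SD, n = 3) in sh1, a direct difference of -1.10 ± 0.05 (limma adjusted p = 3.7e-07). For NOTCH1 targets sh3 was below for 10 of 18 and above for 3, NOTCH3 by -0.60 and DTX1 by -0.48. TLX3 was at 7889 in sh1 on average, and sh3 exceeded it by 0.70. For cholesterol genes sh3 was below for 5 of 25 and above for 1, and 11 of 25 were lower in sh1 than in control. DHCR7, at 1707 on average in sh1, did not pass the direct test between hairpins (-0.17, adjusted p = 0.18). For ATF4-linked genes sh1 was lower than control for 18 of 29 and sh3 for 12, and the direct test put sh3 above sh1 for 9 and below for none. The same direct count, 9 above and none below, held for 20 tRNA synthetases and for 22 genes of the endoplasmic reticulum response. Mitotic genes rose for 8 of 32 with sh1, and sh3 exceeded sh1 for 2 and was below it for 1.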

How the data were processed

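Total RNA of DND41 cells was made into stranded libraries, per the labels' protocols. The authors deposited 1 table of normalized counts per gene symbol, a signal that is not whole reads and carries no length correction, so levels of different genes were not compared. Named in the submitters' processing notes are DESeq, kallisto 0.44.0 and the build hg38. Neither the annotation nor the strand setting is given in the sources used here. Of the named genes, 25 of 124 overlap another coding gene and are uncertain to that extent. After addition of 1 and log2 transformation, the 13885 genes whose mean reached 10 were fitted with limma 3.58.1 in R 4.3.3 (group means over all 8 libraries, empirical Bayes with a variance trend, 5 residual degrees of freedom, Benjamini-Hochberg adjustment over all tested genes, threshold 0.05). A fold on this scale is understated for low genes. In simulated data with these levels and spreads, 13885 genes were tested. Log2 changes of 0.5 and of 1 were placed in 100 genes each, all with a mean of at least 50. The test recovered 62% and 94% of them. Recovery for lower genes was not simulated, and fewer genes changed in the simulation than the 2576 called in the data.

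By rule the text names SIRT1 and the 12 largest rises and falls with a mean of at least 50 and no overlap between groups. The rule adds the 5 furthest above and below sh1, and up to 3 members of each of 39 gene lists by adjusted p. Other list members given with values lie outside this rule and were named with their values known. Members under a mean of 10, from 0 to 7 per list, were not tested. The comparison, members and lists were chosen with earlier results of these data known. Deviations of libraries with the same letter correlated only weakly, from -0.062 to 0.058, and the letters were not used as pairs. Coordinates are from GENCODE release 29 on GRCh38, and promoters from RefSeq on GRCh38.p14. The hairpin sequences were not used here, and a few genes that the rule names are not reported here. Alternatives were another pseudocount, filter, normalization, variance model and sample set, and leaving out each library. Where calls of a list are said to be left, or to have become another number, all members called in that fit are counted.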

Additional observations from a re-analysis of the deposited data

Results flagged for a closer look

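Of the 124 genes named by the rule, 63 differed between the hairpins sh3 and sh1 by the limma test of sh3 minus sh1 (adjusted p under 0.05), against 11.4% of all genes. The named genes were chosen for their change with sh3, and 10 of them as the furthest from sh1, so that their count cannot be read against that share. GARS fell with sh3 but stood above sh1. Values in parentheses are log2 differences, sh3 minus sh1. The lowest were CD300A (-4.47), OR10R2 (-4.45), APP (-4.04), ANKS6 (-3.92), CYSLTR2 (-3.80), CD1E (-3.30), DNTT (-3.19), FLT4 (-2.17), TP53INP1 (-1.95), CDKN1A (-1.84), FN1 (-1.33), CD1B (-1.10) and CTSG (-1.06). Smaller negative differences were seen for BST2 (-0.97), CD244 (-0.69), NOTCH3 (-0.60), SCD5 (-0.54), LTB (-0.52), DTX1 (-0.48), CD7 (-0.48), IL7R (-0.43), PSAP (-0.33), NOLC1 (-0.29), PGAM1 (-0.26), FTH1 (-0.25) and PPAN (-0.20). The highest were LY9 (1.91), NOG (1.79), RGS16 (1.60), TNFRSF1B (1.60), DNAH17 (1.46), FGFR1 (1.45), TXNRD3 (1.16), NECTIN1 (0.999) and HDAC7 (0.998). Smaller positive differences were seen for CDKN2D (0.82), RGS9 (0.81), ONECUT1 (0.80), AC011529.1 (0.78), SLC2A3 (0.72), BBC3 (0.72), HDAC5 (0.71), TLX3 (0.70), CD79B (0.70), DDIT4 (0.67), EDEM1 (0.62), JARID2 (0.59), EBF1 (0.56), BIRC3 (0.52), IER2 (0.48), DNAJB9 (0.44), IFIT2 (0.40), NCOA3 (0.35), NFKB2 (0.33), PFKFB3 (0.31), NR1D2 (0.29), AARS (0.25), CCND3 (0.23), DARS (0.22), CDKN1B (0.19), GARS (0.19), ASXL1 (0.19) and RAG1 (0.15). No group had the 4 libraries needed to look for a single outlying library.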

How the results depend on the processing

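Leaving out 1 library at a time gave between 860 genes called for sh3 against control (without control C) and 2931 (without sh1 A), between 425 and 1440 higher, between 435 and 1491 lower, and between 925 and 1770 for sh3 against sh1. With 1 control left, that library is assumed to vary like the other groups. SIRT1 was called each time, from -0.72 to -0.58. Without the variance trend 1531 genes were called, 743 higher and 788 lower, and 968 against sh1. Of the 123 named calls 18 were lost without it. They were UTP14C, AP001273.2, NR4A1, GAS2, DNAH17, ARPP21, MYB, GARS, RPL23, RPLP0, NDUFB8, NDUFB10, HSPE1, FKBP4, NFKB2, BCL2L11, NPAS2 and CD84. The cause of these losses was not tested. Other pseudocounts, filters, normalizations and the fit of 5 libraries only gave 2312 to 2775 calls. With the replicate letter as a block, 2071 genes were called and 1495 against sh1, SIRT1 was at -0.67, and 7 of 123 named calls were lost (AP001273.2, NR4A1, LY9, DNAH17, MYB, BCL2L11 and NPAS2). For none of the 3 sh3 libraries was the library with the same letter the one it correlated with best. However, sh1 A and control A (0.0427), and sh1 C and control C (0.058), correlated best with each other. A shared effect of the letter between sh1 and control is therefore not excluded. Of the 123 named calls, 33 were lost without control C and at most 14 without any other library. No named gene or SIRT1 value changed direction under these alternatives. With 2 controls and 3 sh3 libraries, changes under 0.5 were often not detectable.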

Other observations

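By gene class, 19.6% of 12767 tested protein-coding genes were called and 5.65% of 938 pseudogenes. By chromosome, the share of genes that rose ran from 5.27% on chromosome 19 (57 of 1081) to 13.2% on chromosome X (55 of 418), and none of the 13 mitochondrially encoded genes tested rose, while 3 fell. The share that fell among nuclear chromosomes ran from 5.70% on chromosome 13 to 14.4% on chromosome 21 (21 of 146), where the median change was -0.07. These shares carry no test.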
